A study of Homo sapiens with 2 samples.

Results

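The genes described here are the apolipoproteins APOA1, APOA2, APOA5, APOB, APOC1, APOC3, APOE, APOH and APOM, together with MTTP, the gene of microsomal triglyceride transfer protein (MTP). A probe was taken when the RefSeq transcript it is designed for belongs to 1 of these 10 genes, which gave 12 probes and 30 spots. They stand among 23752 genes and unnamed transcripts measured on the same arrays. The cells were HepG2, an established human hepatocellular carcinoma line that secretes lipoproteins, exposed for 24 h either to dimethyl sulfoxide (DMSO, 1‰), the control, or to hawk tea extract (HTE), an extract of a herbal tea. The labels give 200 μg/mL HTE, whereas the text of the study names a higher dose, so the dose on the HTE array is uncertain. Each condition was measured on 1 array (1-colour, Cy3), and both lay on the same slide. With 1 array per condition no difference between the conditions was tested, and array, culture and treatment cannot be told apart.

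Apolipoproteins coat the lipid particles that carry triglycerides and cholesterol in blood. In hepatocytes APOB, which stays with its particle for life, takes up lipid from MTP inside the endoplasmic reticulum, and the particle leaves the cell as very low density lipoprotein (VLDL). The smaller apolipoproteins move between particles, where they form the scaffold of high density lipoprotein (HDL), bind receptors, or start or slow the enzymes that break down triglycerides. Many of these genes depend on the liver factor HNF4A. The study asked whether HTE alters VLDL assembly through HNF4A, MTP and APOB, and the arrays give the RNA of the whole family under the same treatment.

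To show what lies before these genes, their promoters were read from RefSeq (GRCh38.p14). Entries were found for 7 of the 10 genes (11 promoters in all), and none for APOA1, APOB and APOC3. In the 250 bases before each start, both strands were searched for a direct repeat of AGGTCA with 1 base between the copies (DR1, a form that HNF4A can bind). At most 3 of the 12 letters were allowed to differ. Such a match occurred in 18.0% of 35116 promoters. MTTP and APOM, which each have a match close to the start, are shown. Capitals mark the whole window of a match, including the letters that differ and the base between the copies.
MTTP, chr4:99574574-99574823, plus strand: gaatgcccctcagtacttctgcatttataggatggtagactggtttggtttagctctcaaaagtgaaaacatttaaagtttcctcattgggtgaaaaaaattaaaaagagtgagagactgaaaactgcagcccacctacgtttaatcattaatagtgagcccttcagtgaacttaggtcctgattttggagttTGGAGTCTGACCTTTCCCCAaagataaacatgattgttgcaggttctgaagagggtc
APOM, chr6:31655644-31655893, plus strand: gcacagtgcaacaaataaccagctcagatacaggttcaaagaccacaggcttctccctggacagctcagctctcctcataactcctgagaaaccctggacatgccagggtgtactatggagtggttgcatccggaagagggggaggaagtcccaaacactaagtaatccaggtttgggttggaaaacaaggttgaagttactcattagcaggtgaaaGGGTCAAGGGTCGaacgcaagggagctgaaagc
In MTTP the capitals hold 2 overlapping matches, both read from the other strand and both with 3 letters different. They are TGGAGTCTGACCT, 57 to 45 bases before the start, and TGACCTTTCCCCA, 50 to 38 bases before it. In APOM it lay 33 to 21 bases before the start, also with 3 letters different. APOA5 had a match with 1 letter different, AGGTTAAAGGTCA, 242 to 230 bases before 1 of its starts. The other MTTP start, the other APOA5 start, APOA2, APOC1, APOH and the 3 APOE starts held none. These are matches of letters in these windows and no measurement of binding.

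The processed signal of each spot was scaled by the 75th percentile of its array, which was 4020.0 for DMSO and 3570.3 for HTE, so that scaling added 0.17 to each log2 ratio of HTE over DMSO. No spot was saturated, and 60.6% and 56.6% of the spots were well above background on the DMSO and HTE arrays. The hepatocyte and hepatoma markers were above background on both arrays in 7 of 7 cases, with log2 ratios from -0.19 (AFP) to 0.21 (SERPINA1). Of 10 markers of other liver cells, 8 were also well above background on both arrays. Their scaled log2 signals were no higher than 0.04 (DMSO) and 0.51 (HTE), both in CD68. ALB, the brightest hepatocyte marker, had 5.21 and 5.40, and HNF4A, the dimmest, had -2.19 and -2.05. HNF4A was dimmer on both arrays than CD68 and PTPRC (-0.77 and -0.64), so the lists overlap in brightness. PECAM1 and CD14, markers of endothelium and of monocytes, were lower on the HTE array (log2 ratios of -1.82 and -1.77), DES was the highest (0.70), and CDH5 was not well above background. The part of such RNA in the results was not tested.

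None of the 12 probes of the 10 genes differed by 2-fold between the arrays after 75th percentile scaling. Of the 10 genes 0 were at least 2-fold lower on the HTE array, beside 3.03% of all 23752 genes and transcripts (720), and 0 were at least 2-fold higher, beside 5.25% (1248). Scaled instead to the E1A spike-in RNA, a control that does not come from the cells, 10 of the 10 genes were at least 2-fold lower, beside 18581 of all 23752. That scaling took 1 constant for all signals, although the ratio of the spikes depended on brightness (below). Higher genes made up 63.4% of those past 2-fold and 42.2% without scaling of the arrays. With 10 genes these backgrounds correspond to less than 1 gene, so the counts of 0 do not set the family apart. The family is also bright. Among 8477 features at least as bright as the dimmest signal of the 10 genes, 4.44% were past 2-fold. Among the 1792 features at least as bright as APOC3, a limit chosen after the data were seen, the share was 0.335% (1 lower and 5 higher). At 1.5-fold the count of the 10 genes was 0 as well. Each gene is represented by its brightest probe, and the log2 ratios ran from -0.18 for APOB to 0.37 for APOE, a range that held 47.0% of all genes. The median was 0.09, with 5 genes below 0, beside a median of 0.00 and 49.0% below 0 over all genes. The values over all genes depend on the treatment of dim probes. They were -0.03 and 53.1% where a dim probe kept its measured value. With only probes well above background on both arrays they were -0.005 and 50.5%. Without scaling the median of the 10 genes was -0.08, beside -0.16 for all genes.

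**Figure D1:**
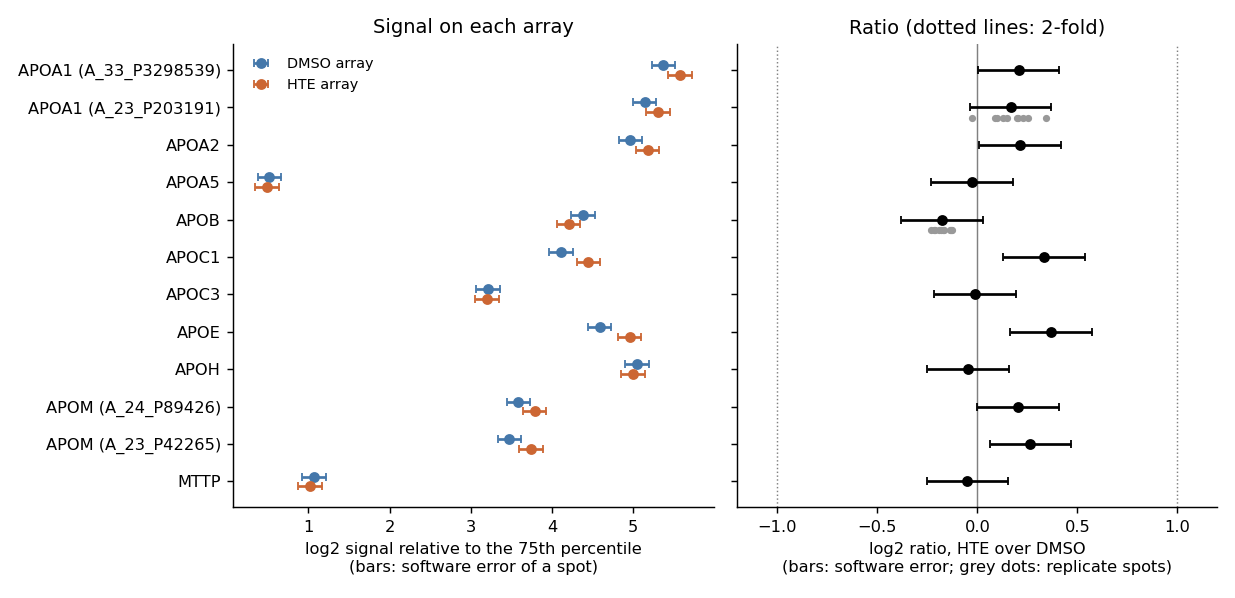
The left panel plots the log2 signal of each of the 12 probes relative to the 75th percentile of its array on the DMSO and the HTE array, and the right panel the log2 ratio of HTE over DMSO, with bars for the error given by the scanner software and grey dots for replicate spots of 1 probe. Every probe lies inside the dotted 2-fold lines, APOB lowest at -0.18 and APOE highest at 0.37.

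The arrays give some measures of technical error. The software put the error of each of these spots at 10.0%, which is 0.20 for a log2 ratio. It is the error of 1 spot and was not reduced for APOB, whose ratio is a mean over 10 spots. Of the 10 genes 4 (APOA1, APOA2, APOC1 and APOE) had a ratio larger than this error, and 0 had a ratio larger than 2 times it. Among replicate spots the log2 ratio had a median SD of 0.05 (688 probes with at least 5 spots), and among different probes of a gene it had a median SD of 0.16 (3759 genes). None of these values holds the variation between cultures.

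APOB, the structural protein of VLDL and of the low density lipoprotein made from it, had the lowest ratio of the family. Its probe was printed on 10 spots. The signals ranged from 79008 to 87264 on the DMSO array and from 63865 to 66973 on the HTE array, so that each HTE spot was dimmer than each DMSO spot. The geometric means were 83928 and 65908, 0.785-fold before scaling. After scaling the log2 ratio was -0.18 (0.884-fold, SD 0.04 over the 10 spots), and all 10 spots lay below 0, between -0.23 and -0.13. The agreement of the spots is that of 1 probe on 1 pair of arrays. Of the 688 probes with replicate spots, 214 (31.1%) had a mean ratio as low as that of APOB or lower, and APOB stood at percentile 32.9 of all genes and at percentile 14.4 of those at least as bright as APOC3.

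MTTP, whose protein loads lipid onto nascent APOB, was measured by 1 spot. Its signal was 8426 on the DMSO array and 7229 on the HTE array, 0.858-fold before scaling. After scaling the log2 signals were 1.07 and 1.02 and the log2 ratio was -0.05 (0.966-fold), inside the software error of 0.20. MTTP stood at percentile 44.0 of all genes. P4HB, the partner subunit of MTP, had a log2 ratio of 0.06. The ratios of MTTP and APOB differed by 0.13, which is less than the software error of such a difference (0.29).

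**Figure D2:**
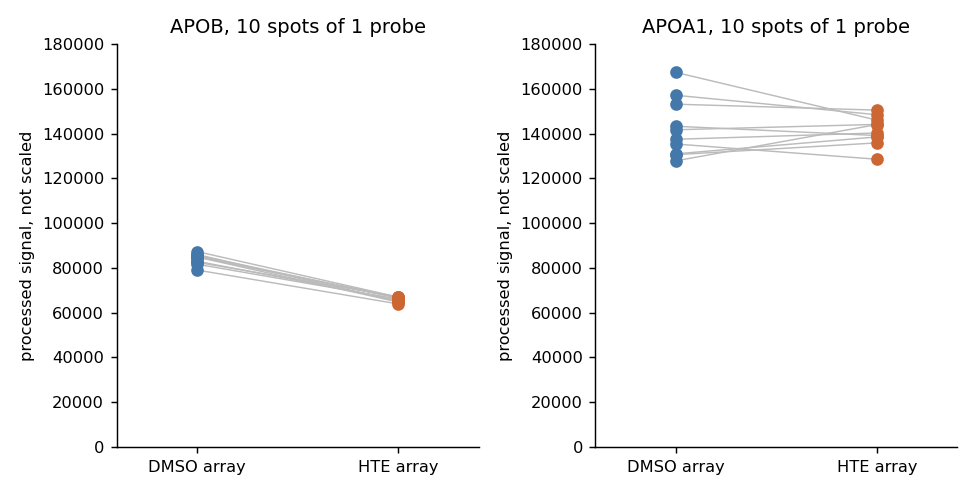
Processed signal, without scaling, of the 10 replicate spots of the APOB probe (left) and of 1 APOA1 probe (right) on the DMSO and HTE arrays, with lines joining the same spot position. The APOB spots of both arrays are separate (79008 to 87264 against 63865 to 66973), and the APOA1 spots overlap.

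APOE and APOC1, neighbours on chromosome 19, had the highest ratios. APOE, the ligand through which remnant particles bind receptors, gave signals of 96592 (DMSO) and 110755 (HTE), a log2 ratio of 0.37 (1.29-fold). APOC1, a small apolipoprotein known to inhibit cholesteryl ester transfer protein, gave 69547.4 and 77848.5, a log2 ratio of 0.33 (1.26-fold). Both were brighter on the HTE array before scaling too, by 0.20 and 0.16 on the log2 scale. They stood at percentiles 79.9 and 78.2 of all genes, and at 92.9 and 91.1 of the features at least as bright as APOC3. Further along the same cluster, APOC4 had a log2 ratio of -0.16 and APOC2, the activator of lipoprotein lipase, of -0.10. TOMM40, the neighbour of APOE on the other side, had -0.28.

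The proteins of HDL lay between these. APOA1, the main scaffold of HDL and the activator of LCAT, was measured by 2 probes. The brighter (A_33_P3298539) gave signals of 166234 and 170316, a log2 ratio of 0.21. The other (A_23_P203191) was on 10 spots, which ranged from 127802 to 167307 on the DMSO array and from 128509 to 150455 on the HTE array. Its spots overlapped between the arrays, HTE was brighter in 5 of the 10 before scaling, and the scaled log2 ratio was 0.17 (SD 0.10, from -0.03 to 0.34, 1 spot below 0). This spread was wider than that of APOB, and 89.5% of the 688 probes had an SD at or below it. The ranges of the spot ratios of APOA1 and APOB did not overlap.

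APOA2, the second protein of HDL, gave 125483 and 129069, a log2 ratio of 0.21. APOM, which carries sphingosine 1-phosphate on HDL, had 2 probes. Its brighter probe gave 48229 and 49268 (log2 ratio of 0.20) and the other 44684 and 47693 (0.27). Before scaling the log2 ratios of the brighter probes were 0.04 (APOA1), 0.04 (APOA2) and 0.03 (APOM), near 0, so most of their size came with the scaling. APOA1 was at -0.05 with quantile normalization.

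APOC3 and APOA5 act on triglyceride clearance in opposite ways, APOC3 as an inhibitor of lipolysis and APOA5 as a promoter of it. APOC3 gave signals of 37226 and 32779, a log2 ratio of -0.01 after scaling. APOA5, the dimmest gene of the family, gave 5753 and 5014, a log2 ratio of -0.03. Neither ratio exceeded the software error. APOH (beta-2-glycoprotein I), a plasma protein that binds anionic phospholipids, gave 132880 and 114226, a log2 ratio of -0.05. For these 3 genes, as for MTTP, the HTE array was dimmer before scaling by 0.18 to 0.22 on the log2 scale, close to the 0.17 that the scaling added.

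APOA1, APOC3 and APOA5 lie in 1 cluster on chromosome 11, with APOA4, a gene of intestinal and hepatic lipid transport. APOA4 had the widest difference of the cluster, from a scaled log2 signal of -2.51 to -1.62 (log2 ratio of 0.89, 1.85-fold), on 1 dim probe. The genes at the ends of this cluster were ZPR1 (-0.04) and SIK3 (0.34). The ratios within both clusters thus lay on both sides of 0. Those of APOC3, APOA5, APOC4 and APOC2, the apolipoproteins below 0, were smaller in size than the software error of 0.20 given above.

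Differences between genes do not depend on a constant scaling of the arrays. The software error of a pair was 0.29, taking the error of 1 spot for each gene, APOB with its 10 spots included. Of the 45 pairs among the 10 genes, 13 differed in log2 ratio by more than this, and 0 by more than 2 times it. The widest was APOE over APOB, 0.55 on the log2 scale (1.46-fold), followed by APOC1 over APOB (0.51). Of the 13 pairs, 5 held APOB, which was lower than APOE, APOC1, APOA2, APOA1 and APOM. APOE over APOB was 0.48 with quantile normalization, 0.51 with loess and 0.67 after the ratios of neighbouring spots were subtracted.

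**Figure D3:**
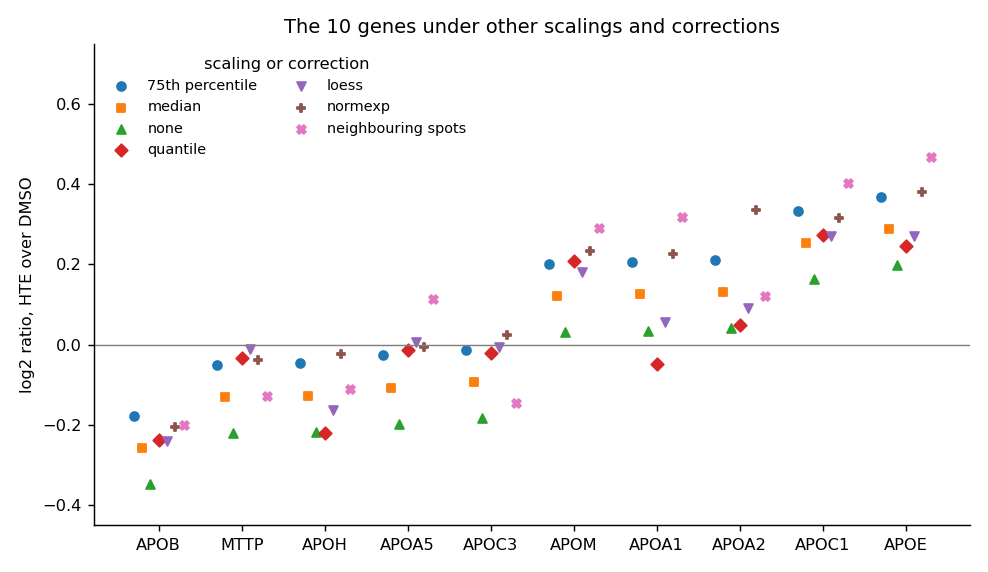
Log2 ratio of HTE over DMSO for the 10 genes, ordered by the value after 75th percentile scaling, under that scaling and 6 other scalings or corrections. APOB is the lowest gene under each of the 7 shown (from -0.35 to -0.18), and APOE and APOC1 stay above 0.

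Brightness has to be set beside these values, since 8 of the 10 genes, all but MTTP and APOA5, are at least as bright as APOC3. That level is reached by 1792 features, a set whose limit was placed at the dimmest of these 8 genes. The E1A spike-in RNA was brighter on the HTE array in all 8 spikes used. Its scaled log2 ratio depended on brightness. It was 1.44 for the spike with signals of 4067 and 9752, near MTTP and APOA5. The ratio was 1.08 for the spike with signals of 31535 and 59237, and 0.63 and 0.62 for the pair with signals of 73100 and 72434 on the DMSO array, where APOB, APOC1 and APOE lie. Ratios of bright spikes were thus smaller than those of dim ones. The part of this in the ratios of the bright apolipoproteins was not tested. Scaled to the spikes instead, all 10 genes were at least 2-fold lower on the HTE array (log2 ratios of -1.56 for APOB to -1.01 for APOE), as the median of all genes fell by 1.37 on the log2 scale. The median of the 10 genes under this scaling was -1.28.

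**Figure D4:**
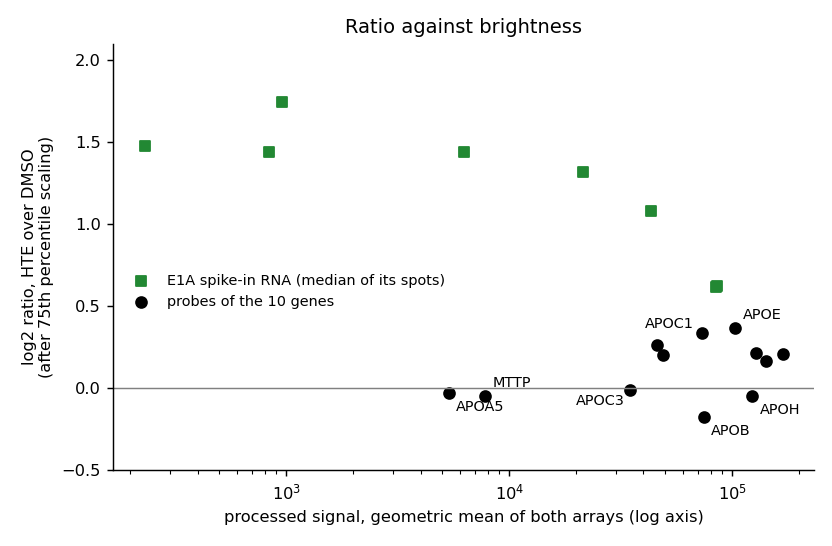
Log2 ratio of HTE over DMSO after 75th percentile scaling against the processed signal (geometric mean of both arrays, log axis) for the 8 E1A spike-in RNAs (squares, 2 of which coincide) and the 12 probes of the 10 genes (circles). The spike ratios lie between 1.44 and 1.74 for the 4 dimmest and at 0.62 at the bright end, above every probe of the 10 genes.

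The genes around the family in lipoprotein metabolism were read by the same steps, in lists chosen with earlier results of these data known. Names beyond the largest rise and fall of a list were chosen after their values were seen. Of 18 other apolipoproteins and related genes, 13 were measured, with a median log2 ratio of -0.06. Only APOL6, an intracellular member of the APOL family, passed 2-fold (1.11), and the lowest was APOL3 (-0.25). All 26 genes of VLDL assembly and secretion were measured, with a median of -0.04 and 14 below 0. CIDEB, a lipid droplet protein needed for VLDL lipidation, was the highest (1.74, from a scaled log2 signal of -0.62 to 1.13), PRAP1, which binds triglycerides and aids MTP, was also past 2-fold (1.07), and 0 were 2-fold lower, the lowest being ACSL3 (-0.74).

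Among 15 measured lipoprotein receptors and their regulators the median was 0.37, and 4 were at least 2-fold higher and 0 lower, beside 5.25% and 3.03% of all genes. Among them VLDLR, a receptor for APOE-rich particles, had a log2 ratio of 1.47, LRP10 1.46 and NPC1L1, the cholesterol transporter, 1.08. The 2 probes of VLDLR disagreed (1.47 and -0.63). The median of these genes was 0.06 with the other probe of a gene and 0.20 after the ratios of neighbouring spots were subtracted. It was 0.20 without scaling and -1.01 with spike-in scaling, beside -0.16 and -1.37 for all genes, and those of the other lists lay between -0.23 and -0.10 without scaling. MYLIP, a ubiquitin ligase that acts on lipoprotein receptors, was lowest (-0.62). Of 12 measured enzymes and transfer proteins that act on lipoproteins, with a median of 0.01, LIPG (endothelial lipase) was past 2-fold (3.05, from a dim signal of -5.00) and GPIHBP1 was lowest (-0.65).

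HNF4A itself had scaled log2 signals of -2.19 and -2.05 on its 1 probe, a log2 ratio of 0.13. All 30 listed regulators of apolipoprotein genes were measured, with a median of 0.03, beside 0.00 for all genes. CEBPA (-1.16) and FOXO1 (-1.08), a factor known to raise MTTP and APOC3, were at least 2-fold lower. CREB3L3, a liver factor known to activate APOA4, APOA5 and APOC2, was higher (1.37), as was RORA (1.22). NR1H2 was 2.41-fold higher by its measured signals, but well above background on the HTE array only. Of 24 measured HNF4A targets other than apolipoproteins, 13 were above 0 and 11 below, with a median of 0.05. EPO (-1.84) and CYP8B1 (2.14-fold lower by its measured signals, but well above background on the DMSO array only) were past 2-fold on 1 side. SHBG (1.39) and CREB3L3 were past it on the other.

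Other plasma proteins made by the liver had a median of 0.00 over 25 measured genes. Lower past 2-fold were KNG1 (at least 3.67-fold, well above background on the DMSO array only), HPX (-1.16) and FGA (-1.11), and higher were ITIH1 (1.35) and VTN (1.04). The log2 ratios of this list thus spread over a wider range (-1.88 to 1.35) than those of the 10 genes (-0.18 to 0.37). The list is longer, with 25 genes against 10. KNG1 and ITIH1, at its ends, were dimmer than all 10 genes, with scaled log2 signals of -3.36 and -1.69 on the DMSO array. FGA was brighter, at 2.03. Of the ratios in this list 3 rest on a signal that was not well above background on the HTE array, and no test of the difference was run.

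**Figure D5:**
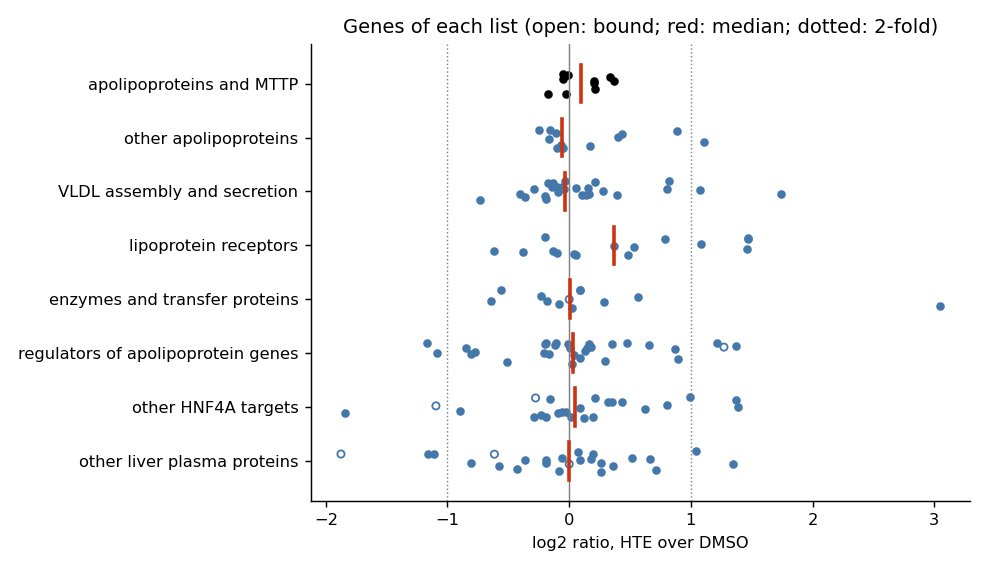
Log2 ratio of HTE over DMSO of each measured gene in the family and in 7 lists of related genes, with the median of each list in red, open circles for bounds and dotted lines at 2-fold. The 10 genes lie between -0.18 and 0.37, and the median of the lipoprotein receptors is 0.37 (0.06 with the other probe of a gene).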

How the data were processed

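HepG2 RNA was profiled on 2 one-colour Agilent arrays, 1 DMSO and 1 HTE. The deposited files hold, for each spot, an intensity, the processed signal of Agilent Feature Extraction (11.5.1.1 per the file headers, 10.7 in the submitters' processing notes), which the authors' software had background-subtracted and detrended without scaling between arrays. The header names hg19, and no array coordinates were used.

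From these, control and outlier spots were left out, log2 was taken, the 75th percentile of 58717 spots was subtracted, and replicate spots were averaged. A probe was kept (29680 of 50599) if the software called at least 0.5 of its spots well above background on either array. A dim value entered as the higher of its own signal and the lowest signal well above background there. The ratio is a bound only where that lowest signal was used. For a probe well above background on the HTE array only, a ratio that came out below 0 was set to 0. For a probe well above background on the DMSO array only, a ratio above 0 was set to 0, as for ABCG1 and GC. Probes were named through RefSeq accessions in the GRCh38.p14 gene table (28174 matched). The brightest probe stood for a gene, and log2 ratios of at least 1 in size were counted. The number of arrays limits the precision, and no test was run.

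The members and lists were chosen with earlier results of these data known. From each list the largest rise and fall among genes well above background on both arrays are named, with HNF4A, P4HB, APOA4, APOC2 and APOC4. Some other genes and a motif that were set for naming are not reported here. Alternatives were normexp (offset 50), quantile normalization, loess, scaling to the median, none or to E1A spikes, subtraction of neighbouring spots, 4 treatments of dim or outlier spots, and 2 of other probes. Some of the main steps were first tested on simulated data, made by altering the DMSO signals. Scaling between arrays, the bound for dim values, the alternatives and the promoter search were not tested in this way. Software was Python 3.11.15 (matplotlib 3.10.9, pandas 2.3.3, numpy 2.4.6) and limma 3.58.1 in R 4.3.3.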

Additional observations from a re-analysis of the deposited data

How the results depend on the processing

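No paired analysis was possible because each condition has 1 array. The median log2 ratio of the 10 genes (0.09) was -0.017 with quantile normalization, 0.031 with loess, 0.015 with scaling to the median, -0.076 without scaling and -1.28 with E1A spike-in scaling. That last scaling put 10 genes 2-fold lower and 10 below 0, against 0 and 5. Its counts follow from the constant it takes from every log2 ratio, and the cause of the other changes was not tested. The count of genes 2-fold higher was 0 under all 13 alternatives. Of these 13, 6 could not change a gene with 1 bright probe. Under the other 7, APOB, APOH and MTTP were below 0, APOE, APOC1, APOA2 and APOM were above 0 in all but spike-in scaling, and APOA5 (0.01 with loess, 0.11 with neighbouring spots subtracted) and APOC3 (0.02 with normexp) changed sign near 0. Over all genes, 720 lower and 1248 higher became 468 and 825 with normexp, 1209 and 883 without scaling, 18581 and 111 with spike-in scaling (0.594% higher), 1270 and 2297 without a filter on dim probes, and 1320 and 1341 (50.4% higher) where a dim probe kept its measured value. All 12 probes were well above background and none was saturated, so signal over background does not limit the 10 genes, and the spread between cultures is unknown.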
